A study of Mus musculus with 13 samples.

Results

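The 10 genes described here encode enzymes, and partners of enzymes, that make, convert and remove 2 phosphoinositides of endosomes and lysosomes, PI3P and PI(3,5)P2. They were chosen by name and function, with earlier results of these data known. They are Pikfyve, Fig4, Vac14, Pik3c3, Pik3r4, Mtm1, Mtmr1, Mtmr2, Mtmr3 and Mtmr4. All 10 were among the 35013 gene symbols of the deposited table, and all 10 were among the 16468 genes with enough counts to be tested. As background, phosphoinositides are membrane lipids whose phosphorylated head group marks the identity of a compartment. Pik3c3 (Vps34), the class III PI3-kinase, works with its regulatory subunit Pik3r4 (Vps15) and makes PI3P, which recruits sorting and fusion proteins to early endosomes and to forming autophagosomes. Pikfyve phosphorylates PI3P to PI(3,5)P2, a lipid needed to keep late endosomes and lysosomes from swelling. It does so in a complex with the scaffold Vac14 and with Fig4, a phosphatase that turns PI(3,5)P2 back. The myotubularins, here Mtm1 and Mtmr1 to Mtmr4, remove the phosphate that the class III kinase had added, from both lipids. The kidney proximal tubule, which reclaims filtered protein by endocytosis through the receptor megalin, depends on this endosomal traffic.

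The data are 13 RNA-seq libraries from kidneys of female mice (C57Bl6 in the methods): 4 libraries carry the label Spns1 KO, 5 the label WT and 4 the label FeO. The Spns1 KO mice were Megalin3'Cre-Ert with Spns1 flox/flox and Uprt flox/+, whereas the WT mice were Megalin3'Cre-Ert with Spns1 flox/+ and Uprt flox/+ (the sample labels call this genotype Spns1 WT). FeO mice had the WT genotype and were injected with iron sucrose, 12 mg daily for 3 days, and were euthanized 1 week later. The methods state that the 12 mg refers to elemental iron. All groups therefore carried the tamoxifen-dependent Cre, which is expressed from the megalin locus, and 1 inducible allele of Uprt (uracil phosphoribosyltransferase). Per the methods, tamoxifen was given in parallel to Spns1 flox/flox and Spns1 flox/+ mice. Uprt lets a cell build injected 4-thiouracil into new RNA, and that RNA was captured on streptavidin after biotinylation and then selected for poly-A tails. WT and FeO mice could thus lose 1 Spns1 allele where Cre acted. Spns1 encodes a lysosomal transporter, and the comparisons with WT ask how loss of Spns1 and iron loading each relate to new RNA of the tubule. The labels do not tie libraries to separate animals, so the p-values given here measure the spread between these libraries.

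Total counts ranged from 31809135 to 71296474 in the libraries labelled Spns1 KO, from 23068023 to 37362311 in WT and from 25986133 to 29981814 in FeO. Each of the 10 genes had between 467 and 8730 counts in every library. Counts of the targeted gene overlapped between the groups: the log2 fold change of Spns1 was -0.31 in the libraries labelled Spns1 KO against WT (SE 0.18, adjusted p = 0.225, edgeR's quasi-likelihood test, Benjamini-Hochberg adjusted). Without Spns1 KO 4 it was -0.47, and with each library's trend on transcript length and GC content removed it was -0.53 and called (adjusted p = 0.0261, from edgeR). In FeO it was -0.15 (SE 0.18, adjusted p = 0.51). The floxed allele is built around exon 3, whereas these counts cover the whole gene. Fth1, the heavy chain of the iron store ferritin, was higher in every library labelled Spns1 KO than in every WT library (log2 fold change 1.33, adjusted p = 0.00245, from edgeR), and the call was kept without each library. Across all tested genes the library labelled Spns1 KO 4 lay nearer the mean of WT (root mean square difference 0.607 on the log2 scale) than that of the other libraries with its label (0.746). The other 12 libraries lay nearest their own group, so values without Spns1 KO 4 are given beside the results that they move most. Markers of every kidney cell type listed were detected in every library. The summed level of 10 proximal tubule markers was 7563 to 8944 CPM (counts per 1000000 of the library, scaled by edgeR's TMM factors) in the libraries labelled Spns1 KO. It was 4097 to 5647 CPM in WT and 2603 to 6352 CPM in FeO, where 5 collecting duct markers together reached 478 to 1423 CPM against 318 to 549 CPM in WT. In such bulk RNA, fewer cells of a type and less RNA per cell cannot be told apart, and the part of cell composition in the results was not tested.

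Relative to WT, 3 of the 10 genes fell in the libraries labelled Spns1 KO (Pikfyve, Mtmr3 and Mtmr4) and none rose. A gene was called when its adjusted p was under 0.05 and its log2 fold change lay beyond 0.5 in either direction. Of all 16468 tested genes, 7.60% fell by this rule, 14.1% rose and 21.7% were called in either direction. The median log2 fold change of the 10 genes was -0.38, where it was -0.045 over all tested genes. The values of 9 of the 10 were below 0, as were those of 53.2% of all tested genes. In FeO, 4 of the 10 fell (Pikfyve, Mtmr1, Mtmr3 and Mtmr4) and none rose, where 19.7% of all tested genes fell, 22.4% rose and 42.2% were called in either direction. The median of the 10 in FeO was -0.22, with 7 below 0, against -0.011 and 50.5% over all tested genes. Both comparisons use the same WT libraries.

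For 5 of the 10 genes (Pik3r4, Mtmr1, Mtmr2, Mtmr3 and Mtmr4) every library labelled Spns1 KO was lower than every WT library, which held for 9.38% of all tested genes. For 3 of the 10 (Pikfyve, Mtmr3 and Mtmr4) every FeO library was lower than every WT library, which held for 16.4% of all tested genes. For 0 of the 10 did a group lie wholly above WT, where 13.1% of all tested genes did so in Spns1 KO and 16.9% in FeO. Between the libraries labelled Spns1 KO and FeO, 1 of the 10 genes was called: Pikfyve was lower in FeO. Of all tested genes, 6.81% were called higher in Spns1 KO than in FeO, 8.05% lower and 14.9% either way. The libraries labelled Spns1 KO lay wholly above FeO for Pikfyve, as for 8.25% of all tested genes, and wholly below FeO for Mtmr2, as for 9.10%.

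**Figure D1:**
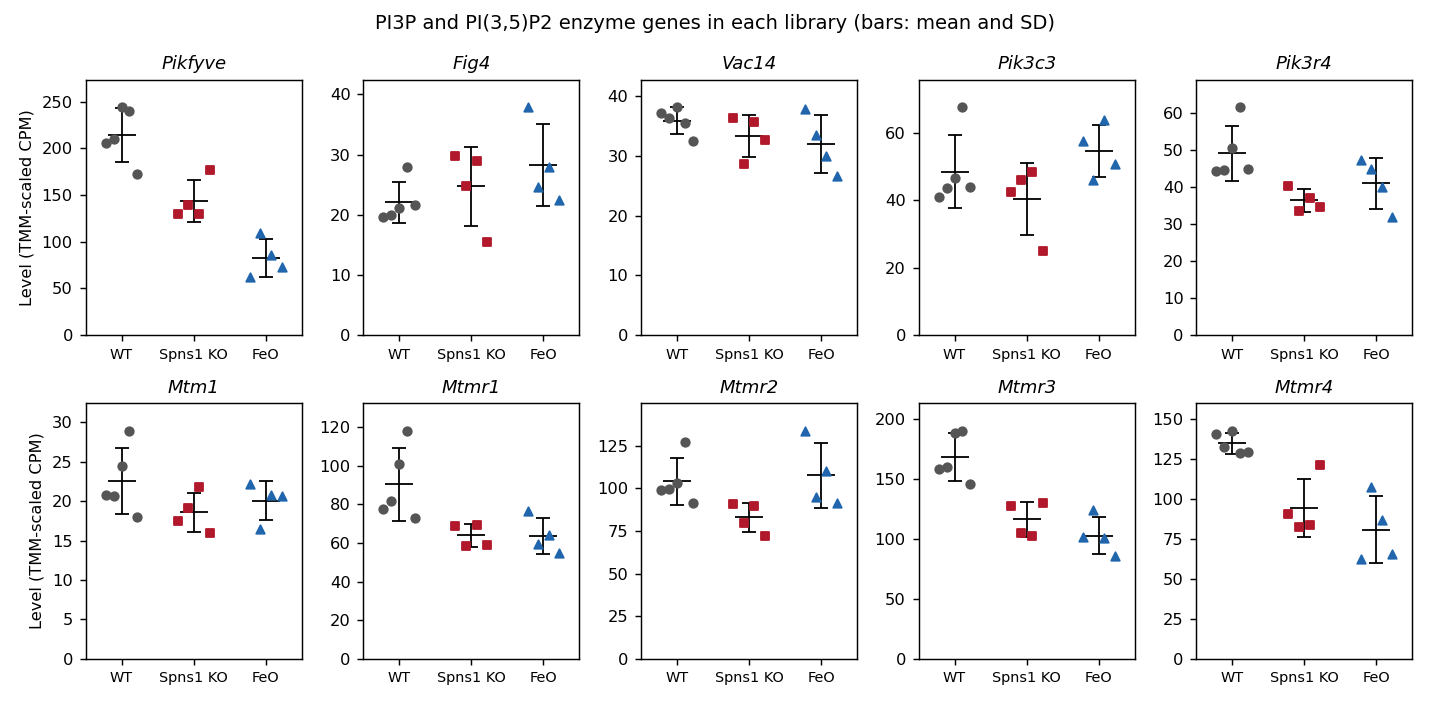
Level of each of the 10 genes in CPM (vertical axis, from 0), with a dot for each library in the order WT, Spns1 KO and FeO, and the mean with its SD. Pikfyve falls from a mean of 215 CPM in WT to 144 in Spns1 KO and 82.7 in FeO, whereas the groups of Fig4 and Vac14 overlap.

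Pikfyve, the kinase that makes PI(3,5)P2, differed most between the groups among the 10 genes, with WT highest and FeO lowest. The gene lies on chromosome 1 of GRCm38, from 65186683 to 65278695 on the plus strand, and its principal transcript has 11237 bases. Other genes, chiefly Gfod2, hold 3.12% of its 31-base sequences. Its level was 206, 211, 244, 239.7 and 172 CPM in WT 1 to 5. It was 130.1, 139, 129 and 177 CPM in the libraries labelled Spns1 KO 1 to 4. In FeO 1 to 4 it was 62.4, 109, 86.3 and 72.8 CPM. Every FeO library was thus lower than every library of both other groups, and of the libraries labelled Spns1 KO, number 4 lay above the lowest WT library, WT 5.

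The group means of Pikfyve were 82.7 ± 20.3 CPM in FeO (SD, n = 4), 144 ± 22.5 CPM in Spns1 KO (SD, n = 4) and 215 ± 29.1 CPM in WT (SD, n = 5). Against WT it fell in FeO with a log2 fold change of -1.38, a level 2.59-fold lower (SE 0.19, adjusted p = 0.00031, edgeR's quasi-likelihood test, Benjamini-Hochberg adjusted). Leaving out each of the 13 libraries in turn moved this value between -1.52 and -1.24, and the call was kept each time. In the libraries labelled Spns1 KO it fell with a log2 fold change of -0.58, a level 1.49-fold lower (SE 0.18, adjusted p = 0.0322 from the same test). That call was less stable: without any 1 of Spns1 KO 1, 2 or 3 or of WT 2, 3 or 4 it was lost, whereas without Spns1 KO 4 the log2 fold change was -0.69 (adjusted p = 0.0106). The difference between the models passed the limits too, with Pikfyve 1.74-fold higher in Spns1 KO than in FeO (log2 fold change 0.80, SE 0.19, adjusted p = 0.0131, from edgeR). The study singled out Pikfyve on these same libraries, so its direction here is not independent evidence.

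Fig4, the phosphatase of the complex (chromosome 10, from 41188172 to 41303260, minus strand), did not follow Pikfyve. It stood at 19.7, 20.0, 21.1, 27.9 and 21.6 CPM in WT 1 to 5. The values were 29.7, 24.9, 29.0 and 15.4 CPM in the libraries labelled Spns1 KO 1 to 4, whereas FeO 1 to 4 stood at 37.9, 24.7, 27.9 and 22.5 CPM. All groups overlapped, and Spns1 KO 4 was the lowest of all 13 libraries where its 3 fellow libraries lay above 4 of the 5 WT libraries. Against WT, Fig4 had a log2 fold change of 0.16 in Spns1 KO (95% interval -0.24 to 0.57, adjusted p = 0.581) and 0.36 in FeO (95% interval -0.045 to 0.76, adjusted p = 0.164, edgeR's quasi-likelihood test, Benjamini-Hochberg adjusted). Without Spns1 KO 4 the former was 0.34.

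Vac14, the scaffold that holds the complex together (chromosome 8, from 110618585 to 110720398, plus strand), varied little. Its level was 37.2, 36.4, 38.2, 35.5 and 32.4 CPM in WT 1 to 5. It was 36.4, 28.7, 35.7 and 32.7 CPM in the libraries labelled Spns1 KO and 37.8, 33.5, 29.9 and 26.6 CPM in FeO. The groups overlapped. Against WT its log2 fold change was -0.11 in the libraries labelled Spns1 KO (95% interval -0.38 to 0.16, adjusted p = 0.593) and -0.17 in FeO (95% interval -0.44 to 0.10, adjusted p = 0.327, both from edgeR).

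The counts of Pikfyve relative to its partners within each library, which need no scaling between libraries, show how the proportions of the complex's transcripts differed. The ratio of Pikfyve to Vac14 counts was 5.54, 5.79, 6.40, 6.76 and 5.31 in WT 1 to 5. It was 3.58, 4.85, 3.63 and 5.42 in the libraries labelled Spns1 KO and 1.65, 3.27, 2.88 and 2.73 in FeO. Every FeO library lay below every other library, and of the libraries labelled Spns1 KO number 4 alone reached the WT range. The ratio of Pikfyve to Fig4 counts was 10.5, 10.5, 11.6, 8.58 and 7.97 in WT, and 1.65, 4.43, 3.10 and 3.24 in FeO. In the libraries labelled Spns1 KO it was 4.38, 5.60, 4.47 and 11.5, so numbers 1 to 3 lay below all WT libraries and number 4 near the highest of them. These ratios are a description and were not tested. Pikfyve has by far the longest transcript of the 3 genes, and the libraries' dependence on transcript length, given further on, was not removed from them.

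**Figure D2:**
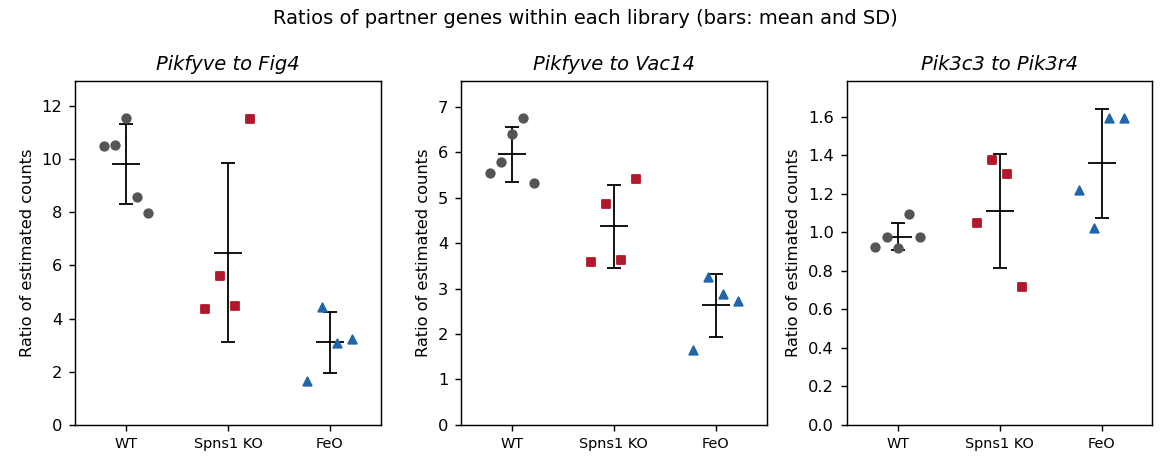
Ratio of counts within each library (vertical axis, no unit) for Pikfyve to Fig4, Pikfyve to Vac14 and Pik3c3 to Pik3r4, with a dot for each library, the group mean and its SD. The mean ratio of Pikfyve to Vac14 is 2.63 in FeO, 4.37 in Spns1 KO and 5.96 in WT, and Spns1 KO 4 stands apart from its group in the ratio of Pikfyve to Fig4.

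RefSeq promoter windows of GRCm38.p6 (250 bases before to 50 bases after a start, 300 bases) were given for 7 of the 10 genes and not for Pik3c3, Mtmr3 or Mtmr4. Both strands were searched for CACGTG, the core of a motif bound by lysosomal regulators such as Tfeb, for CCAAT and for GGGCGG, none of which contains another. They occur in 7.15%, 37.4% and 35.7% of all 32851 promoter windows. Of the 7 genes, which have 11 windows, Vac14 and Mtm1 hold CACGTG in a window. The stretches below contrast the Pikfyve window, which holds CCAAT on its minus strand (printed as ATTGG) and GGGCGG but no CACGTG, with the site in that of Vac14. The Vac14 window holds CCAAT and GGGCGG too, outside the stretch shown. Capitals mark the matches, and the positions are chr1:65186624-65186653 (61 to 32 bases before the start) and chr8:110618586-110618615 (19 to 48 bases after it), both on the plus strand.
Pikfyve: tgATTGGttagaaggggtactGGGCGGagc
Vac14: tgctcgcggcgtCACGTGacctgagtaaca
A match is a description of letters in the window, not of binding.

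Pik3c3, the catalytic subunit that makes PI3P (chromosome 18, from 30272747 to 30348126, plus strand), was not called in any comparison. Its level was 41.0, 43.5, 46.5, 67.6 and 43.8 CPM in WT 1 to 5. It was 42.4, 46.0, 48.3 and 24.9 CPM in the libraries labelled Spns1 KO and 57.7, 45.9, 63.7 and 50.9 CPM in FeO. Spns1 KO 4 was the lowest of the 13 libraries and WT 4 the highest, and all groups overlapped. The log2 fold change against WT was -0.26 in Spns1 KO (95% interval -0.65 to 0.13, adjusted p = 0.348) and 0.17 in FeO (95% interval -0.22 to 0.56, adjusted p = 0.497, both from edgeR). Without Spns1 KO 4 the former was -0.089.

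Pik3r4, the regulatory subunit that anchors the kinase to membranes (chromosome 9, from 105642978 to 105687657, plus strand), stood at 44.4, 44.6, 50.7, 61.7 and 44.9 CPM in WT. Its level was 40.5, 33.5, 37.1 and 34.7 CPM in the libraries labelled Spns1 KO, and every one of these lay below every WT library. In FeO it was 47.3, 45.0, 40.0 and 31.9 CPM, a range that overlapped WT. Pik3r4 had a log2 fold change of -0.43 in Spns1 KO (SE 0.15, adjusted p = 0.0468, edgeR's quasi-likelihood test, Benjamini-Hochberg adjusted), inside the fold limit and so not called. It was -0.26 in FeO (SE 0.15, adjusted p = 0.161). The count ratio of Pik3c3 to Pik3r4 was 1.02 to 1.59 in FeO, 0.72 to 1.37 in Spns1 KO and 0.92 to 1.10 in WT. The 2 subunits of the kinase thus had nearly equal counts in WT, and Spns1 KO 4 had the lowest ratio of the 13 libraries. Counts are not scaled to transcript length, which is 3257 bases for Pik3c3 and 4756 bases for Pik3r4.

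Among the myotubularins, Mtmr3 and Mtmr4 fell in both comparisons. Mtmr3, a phosphatase of PI3P that carries a PI3P-binding FYVE domain (chromosome 11, from 4480868 to 4594863, minus strand), shares 2.63% of its 31-base sequences with other genes, chiefly Gm5043. Its level was 158, 159.7, 188, 190.3 and 146 CPM in WT 1 to 5, 128, 105, 102 and 130.2 CPM in the libraries labelled Spns1 KO, and 101, 124, 101 and 85.8 CPM in FeO. Every library of both other groups was lower than every WT library, and Spns1 KO and FeO overlapped. Mtmr3 had a log2 fold change of -0.53 in Spns1 KO, a level 1.45-fold lower (SE 0.16, adjusted p = 0.0217), and -0.71 in FeO, 1.64-fold lower (SE 0.16, adjusted p = 0.00218, both from edgeR). The FeO call was kept without each of the 13 libraries, whereas the Spns1 KO call was lost without Spns1 KO 2, Spns1 KO 3, WT 3 or WT 4, over values of -0.59 to -0.47.

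Mtmr4, the closest relative of Mtmr3 and likewise a FYVE-domain phosphatase of endosomes (chromosome 11, from 87592162 to 87616302, plus strand), stood at 140.3, 132, 142, 129 and 129 CPM in WT. Its level was 90.5, 82.4, 83.5 and 121 CPM in the libraries labelled Spns1 KO and 62.2, 107, 87.0 and 65.7 CPM in FeO. Both groups lay wholly below WT, with Spns1 KO 4 the nearest to it. Mtmr4 had a log2 fold change of -0.74 in FeO, a level 1.67-fold lower (SE 0.18, adjusted p = 0.00382, edgeR's quasi-likelihood test, Benjamini-Hochberg adjusted), a call kept without each library. In Spns1 KO it was -0.51, 1.43-fold lower (SE 0.18, adjusted p = 0.0457), close to both limits. Of the 13 fits that leave out 1 library, 12 lost that call, and the fit without Spns1 KO 4 kept it at -0.65. Neither gene was called between Spns1 KO and FeO, where the log2 fold changes were 0.18 for Mtmr3 (adjusted p = 0.468) and 0.23 for Mtmr4 (adjusted p = 0.408).

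Mtmr1, a close relative of Mtm1 that lies next to it on chromosome X (from 71364760 to 71419196, plus strand), was at the fold limit in both comparisons. Its level was 77.6, 82.0, 101, 118 and 73.2 CPM in WT, 68.9, 58.6, 69.3 and 59.1 CPM in the libraries labelled Spns1 KO, and 76.5, 59.7, 64.1 and 54.9 CPM in FeO. Every library labelled Spns1 KO was below every WT library, whereas FeO 1 lay inside the WT range. The log2 fold change was -0.498 in Spns1 KO (SE 0.16, adjusted p = 0.0373), not called, and -0.502 in FeO (SE 0.16, adjusted p = 0.0208, both from edgeR), called. The FeO call was lost without WT 3, WT 4, FeO 2 or FeO 4, and the Spns1 KO value was called without WT 1, WT 2 or WT 5. Between Spns1 KO and FeO the log2 fold change was 0.0044 (SE 0.17, adjusted p = 0.988), and its sign turned under other scalings.

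Mtm1, the founding myotubularin and the gene of X-linked myotubular myopathy (chromosome X, from 71210767 to 71315691, plus strand), was among the lowest of the 10 in level and was not called. Its level was 20.8, 20.7, 24.5, 28.9 and 18.0 CPM in WT, 17.5, 19.1, 21.8 and 16.0 CPM in the libraries labelled Spns1 KO, and 22.2, 16.5, 20.7 and 20.7 CPM in FeO. All groups overlapped. The log2 fold change was -0.28 in Spns1 KO (SE 0.17, adjusted p = 0.233) and -0.17 in FeO (SE 0.17, adjusted p = 0.404, both from edgeR).

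Mtmr2, mutated in a demyelinating neuropathy (chromosome 9, from 13748410 to 13806481, plus strand), was the one of the 10 with many sequences in common with another gene: 12.0% of its 31-base sequences also occur elsewhere, chiefly in Gm4880, so its counts are less certain. Its level was 98.8, 99.5, 103, 127 and 91.7 CPM in WT and 90.6, 79.7, 89.4 and 72.2 CPM in the libraries labelled Spns1 KO, all of them below WT. In FeO it was 134, 95.2, 110.1 and 91.6 CPM, all above the libraries labelled Spns1 KO and overlapping WT. The log2 fold change was -0.33 in Spns1 KO against WT (SE 0.15, adjusted p = 0.133) and 0.048 in FeO against WT (SE 0.15, adjusted p = 0.813), and the latter was -0.0089 when libraries were scaled by totals alone. Between Spns1 KO and FeO it was -0.38 (SE 0.16, adjusted p = 0.119, from edgeR), so neither separation of the groups was called.

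**Figure D3:**
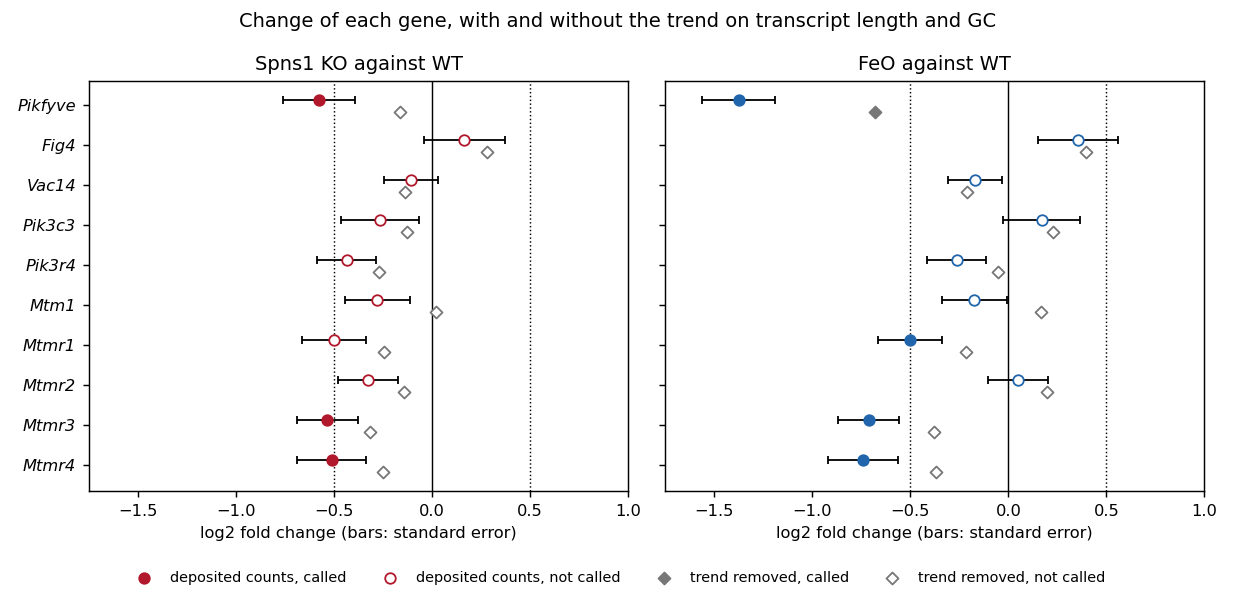
Log2 fold change with its standard error for each of the 10 genes in Spns1 KO against WT and in FeO against WT. Filled circles passed the limits and open circles did not, with dotted lines at 0.5 in either direction. Diamonds show the same value after each library's trend on transcript length and GC content had been taken out. Pikfyve in FeO against WT lies at -1.38 and its diamond at -0.68, still past the limits, whereas the diamonds of the 10 genes in Spns1 KO against WT all lie inside the lines.

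Per kilobase of the principal transcript, 4 of the myotubularins had the highest mean levels of the 10 genes in WT, whereas Mtm1 had the lowest. Mean levels there were 29.7 CPM per kb for Mtmr3, 27.5 for Mtmr2, 23.4 for Mtmr4, 19.5 for Mtmr1, 19.1 for Pikfyve and 14.9 for Pik3c3. Each of these had a range over libraries that overlapped that of its neighbour in the order. Vac14 (11.7 CPM per kb) lay wholly below Pik3c3 and overlapped Pik3r4 (10.4), and Fig4 (6.72) and Mtm1 (6.47) lay below both and overlapped each other. Pikfyve thus stood in the middle of the order in WT. It did so in Spns1 KO too, at 12.8 CPM per kb, but in FeO, at 7.36, it had the lowest mean but for Mtm1, and its range overlapped that of Fig4 (8.60). In FeO Mtmr2 (28.4 CPM per kb) lay wholly above the next gene, Mtmr3 (18.1). In Spns1 KO the order began with Mtmr2 (21.9) and Mtmr3 (20.5), whose ranges overlapped.

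The 10 genes are long, and libraries differed in how level depended on transcript length. The median principal transcript had 4211 bases among the 10 and 2930 among the tested genes, and 1.32% of tested genes have a longer one than Pikfyve. In each library, the slope of a gene's deviation from its mean over all libraries on transcript length was 0.068 to 0.299 log2 units per doubling of length in WT. It was -0.131 to 0.0329 in the libraries labelled Spns1 KO and -0.192 to -0.092 in FeO, so WT lay apart from both. Whether the difference in slope is one of RNA quality, capture or transcription was not tested.

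When each library was corrected for a smooth dependence on transcript length and GC content, the median of the 10 genes moved towards 0 and most calls were lost. The median log2 fold change became -0.15 in Spns1 KO and -0.13 in FeO, where it was 0.0011 and 0.038 over all tested genes. In Spns1 KO against WT, 0 of the 10 were called by edgeR's quasi-likelihood test, where 4.12% of all tested genes fell. Pikfyve was then -0.16 (adjusted p = 0.482), Mtmr3 -0.31 and Mtmr4 -0.25. In FeO against WT, 1 of the 10 was called, where 14.0% of all tested genes fell: Pikfyve at -0.68 (adjusted p = 0.0056, edgeR with Benjamini-Hochberg adjustment). Mtmr3 was -0.38 (adjusted p = 0.0217), inside the fold limit, Mtmr4 -0.37 and Mtmr1 -0.21. Between Spns1 KO and FeO, Pikfyve remained called at 0.51 (adjusted p = 0.045, from the same fit), where 7.05% of all tested genes were called higher in Spns1 KO.

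**Figure D4:**
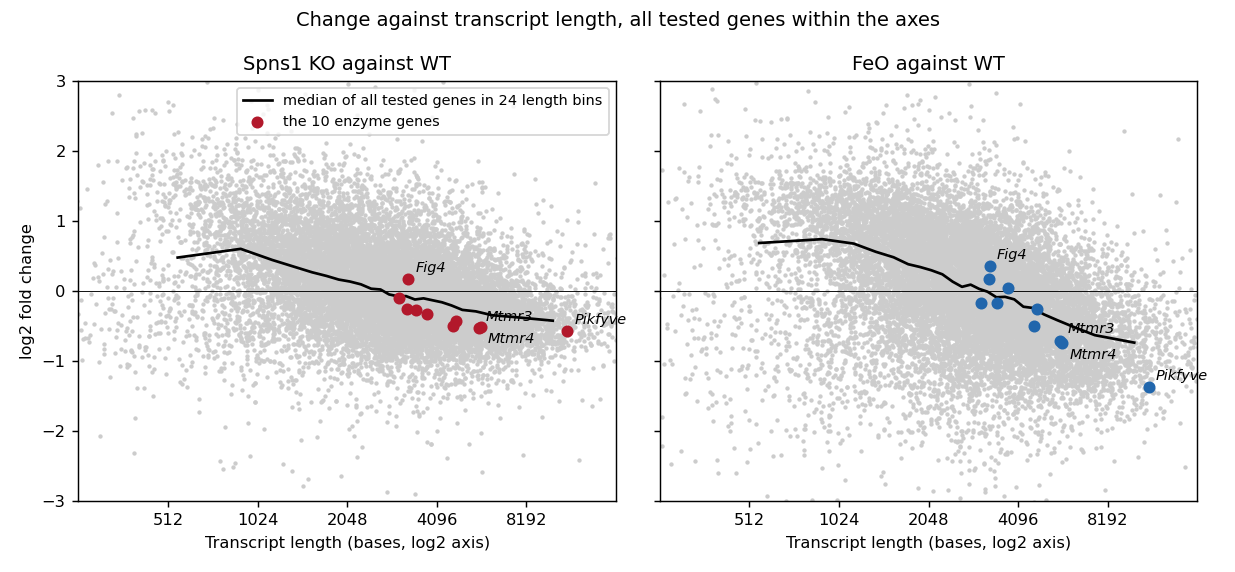
Log2 fold change against WT (vertical axis) by length of the principal transcript in bases (horizontal log axis) for the tested genes within the axes (grey) in Spns1 KO and in FeO, with the median of genes of similar length (black line) and the 10 genes (coloured). Pikfyve, at 11237 bases the longest of the 10, lies at -0.58 in Spns1 KO and -1.38 in FeO.

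Other genes of the pathway were counted by list. Of 9 other members of the myotubularin family, 1 fell in the libraries labelled Spns1 KO and 3 fell in FeO, and none rose (medians -0.32 and -0.53), where 7.60% and 19.7% of all tested genes fell (medians -0.045 and -0.011). Sbf1, an inactive family member (Mtmr5) that activates Rab GTPases, averaged 111 ± 34.2 CPM in FeO (SD, n = 4), 165 ± 19.6 CPM in Spns1 KO (SD, n = 4) and 206 ± 26.0 CPM in WT (SD, n = 5). On the log2 scale it stood at -0.32 against WT in Spns1 KO (adjusted p = 0.223) and at -0.89 in FeO (adjusted p = 0.00191, from edgeR). Sbf2 (Mtmr13), its paralog and a partner of Mtmr2, fell in both, with -0.59 in Spns1 KO (adjusted p = 0.0285, a call lost in 5 of the fits without 1 library) and -0.90 in FeO (adjusted p = 0.00136). Mtmr12, the inactive adaptor that stabilizes Mtm1, averaged 45.4 ± 11.3 CPM in FeO (SD, n = 4), 76.4 ± 14.8 CPM in Spns1 KO (SD, n = 4) and 94.0 ± 12.1 CPM in WT (SD, n = 5), a log2 fold change of -1.05 in FeO (adjusted p = 0.000623). The FeO calls of Sbf1 (-0.53) and Mtmr12 (-0.54) were kept with the length and GC trend removed, and that of Sbf2 (-0.35) was not. The Spns1 KO call of Sbf2 was lost there too, at -0.19 (adjusted p = 0.347, from edgeR). Mtm1, the enzyme that Mtmr12 binds, was not called in FeO, as given above.

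Of 9 partners of the class III kinase and class II PI3-kinases, 1 fell in Spns1 KO and 3 fell in FeO, and none rose (medians -0.25 and -0.34), beside the same 7.60% and 19.7% of all tested genes that fell. Atg14, which directs the class III kinase to autophagosome formation, averaged 19.8 ± 9.05 CPM in FeO (SD, n = 4), 19.1 ± 5.44 CPM in Spns1 KO (SD, n = 4) and 32.3 ± 3.58 CPM in WT (SD, n = 5). It fell in both, by 0.75 and 0.71 on the log2 scale (adjusted p = 0.0422 and 0.0333, edgeR's quasi-likelihood test, Benjamini-Hochberg adjusted), calls that were lost in 9 and 7 of the fits without 1 library and, at -0.62 and -0.61, with the trend removed. Without Spns1 KO 4 the Spns1 KO value was -0.96. Pik3c2a, a class II kinase of endocytic membranes that the study also singled out on these libraries, had a log2 fold change of -1.13 in FeO (adjusted p = 0.00104) and of -0.30, no longer called, with the trend removed. Pik3c2g, a class II kinase, averaged 12.9 ± 5.13 CPM in FeO (SD, n = 4), 24.4 ± 3.75 CPM in Spns1 KO (SD, n = 4) and 28.1 ± 4.54 CPM in WT (SD, n = 5). Its log2 fold change in FeO was -1.12 (adjusted p = 0.00197), and -1.02 with the trend removed, still called. In Spns1 KO, Pik3c2a stood at -0.44 (adjusted p = 0.151) and Pik3c2g at -0.20 (adjusted p = 0.553).

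Of 19 proteins that bind PI3P or PI(3,5)P2 and channels gated by the latter, 1 rose and 1 fell in Spns1 KO, and 3 rose and 5 fell in FeO (medians -0.24 and -0.33). Of all tested genes, 14.1% rose and 7.60% fell in Spns1 KO, and 22.4% rose and 19.7% fell in FeO. Tpcn1, a 2-pore channel of endolysosomes that PI(3,5)P2 opens, rose in Spns1 KO, from 129 ± 10.1 CPM in WT (SD, n = 5) to 189 ± 17.2 (SD, n = 4), with a log2 fold change of 0.56 (adjusted p = 0.0131, from edgeR). The call was lost without Spns1 KO 1 and with library totals alone (0.43, adjusted p = 0.0543), and kept, at 0.67, with the trend removed. In FeO Tpcn1 stood at 118 ± 19.1 CPM (SD, n = 4), a log2 fold change of -0.13 (adjusted p = 0.499). Zfyve26, a FYVE-domain protein, had log2 fold changes of -0.63 in Spns1 KO (adjusted p = 0.0384, lost in 8 of the fits without 1 library) and -0.92 in FeO (adjusted p = 0.00285), and both calls were lost with the trend removed. Without Spns1 KO 4 the former was -0.84.

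The early endosome tether Eea1 fell in FeO (log2 fold change -0.80, adjusted p = 0.00493, from edgeR), but it stood at -0.13 with the trend removed. Wdfy3, an autophagy adaptor with a FYVE domain, fell by 1.26 on the log2 scale (adjusted p = 0.000994), and Sgk3, a kinase recruited by PI3P, fell by 1.05 (adjusted p = 0.00128). Both were still called with the trend removed, at -0.55 and -0.73. Snx3, a PI3P-binding sorting nexin, rose in FeO, from 43.9 ± 5.47 CPM in WT (SD, n = 5) to 106 ± 30.0 (SD, n = 4), with a log2 fold change of 1.27 (adjusted p = 0.000626) and of 0.81 with the trend removed. In Spns1 KO it stood at 67.2 ± 21.3 CPM (SD, n = 4), a log2 fold change of 0.62 that was not called (adjusted p = 0.0554, from edgeR). It was called in 5 of the 13 fits without 1 library, at 0.81 without Spns1 KO 4, and in 3 of 7 other settings, whereas it was 0.28 with the trend removed.

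Across the 13 libraries, the tested genes whose log2 CPM followed Pikfyve most closely were Ubn1 (r = 0.994), Sec24a (0.987) and Gna13 (0.983). Like Pikfyve they have long principal transcripts, of 6455, 6581 and 6160 bases. Among the other 9 genes, Mtmr4 (r = 0.915) and Mtmr3 (0.895) were nearest to Pikfyve, then Mtmr1 (0.614), whereas Vac14 reached 0.429 and Fig4 was at -0.568. For Pik3c3 the closest genes were Eri1 (r = 0.950, 5079 bases), Fam172a (0.940, 3892 bases) and Csnk2a1 (0.939, 4206 bases). For Mtm1 they included Cnot6l (0.935, 8564 bases) and Ecpas (0.919, 7045 bases). Pik3c3 and Mtm1 themselves have 3257 and 3488 bases, so long transcripts among the closest genes were not particular to Pikfyve. Of the 10 genes, Mtmr2 was nearest to Pik3c3 (r = 0.797) and Mtmr1 nearest to Mtm1 (0.790). These values are descriptions over 13 libraries that share group, length trend and scaling, and carry no test.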

How the data were processed

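Kidney RNA captured through the Uprt label was sequenced in 13 libraries. The authors deposited 1 table of estimated counts per gene symbol, without normalization. Per the labels' processing notes (bcl2fastq 2.19, kallisto 0.44.0, DESeq2, GRCm38) reads were assigned by kallisto, whereas the study's methods describe alignment with STAR and counting with HTSeq, so how reads shared between genes were assigned is uncertain. Precision is set by the depths given above. The counts were whole numbers as deposited. They were analysed in R 4.3.3 with edgeR 4.0.16: filterByExpr by group, TMM factors, and a robust quasi-likelihood fit of all 13 libraries with group means and no block, with p-values adjusted by Benjamini-Hochberg over all 16468 tested genes. DESeq2 (1.42.0), which the study used, was an alternative. The others were DESeq2 size factors, library totals alone, no filter on low counts, a fit of the compared groups alone, a replicate block, a length and GC trend removed from each library (mgcv 1.9.3), and leaving out each library. The fit was tested on simulated counts.

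Groups came from the labels. Log2 CPM used a prior count of 2. The 95% intervals are 1.96 SE either side, a normal approximation that can be narrower than the quasi-likelihood test would give. Gene positions, transcript lengths and shared 31-base sequences came from GENCODE M21 on GRCm38. The named genes are the 10 members, and of 3 pathway lists the genes called in either comparison with WT, at most 6 a list by mean count, plus the 3 genes most correlated with each of Pikfyve, Pik3c3 and Mtm1, of which 1 is not reported here. Members and lists were chosen with earlier results of these data known.

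Of the marker lists, 6 of 10 proximal tubule genes rose in Spns1 KO, whereas in FeO 2 rose and 1 fell. Values of 2 of these 10 were below 0 in Spns1 KO (median 0.80) and of 7 in FeO (median -0.41). Of all tested genes, 14.1% rose and 7.60% fell in Spns1 KO, and 22.4% rose and 19.7% fell in FeO. In Spns1 KO and FeO respectively, 2 and 2 of 4 podocyte, 2 and 0 of 4 loop and distal tubule, 2 and 4 of 5 collecting duct, 0 and 2 of 5 immune, and 2 and 1 of 4 fibroblast and mural markers rose, and none fell. Of 4 endothelial markers, 1 rose in Spns1 KO, and 1 rose and 1 fell in FeO.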

Additional observations from a re-analysis of the deposited data

Results flagged for a closer look

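WT 4 lay apart from the other 4 WT libraries in Fig4 (27.9 CPM) and in Pik3c3 (67.6 CPM) by Dixon's criterion, 2 flags in 30 tests of the 10 genes in 3 groups, where chance flags about 1 in 20 groups. WT 4 was also the highest WT library in Pik3r4, Mtm1, Mtmr1, Mtmr2 and Mtmr3.

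For 7 named genes the difference between both models was itself past the limits. Of all tested genes, 6.81% were called higher in Spns1 KO than in FeO and 14.9% either way. Those of the 7 outside the 10 genes were named because they were called against WT, so their number cannot be set against that share. The log2 fold change of Spns1 KO against FeO was 0.80 for Pikfyve (adjusted p = 0.0131, edgeR's quasi-likelihood test, Benjamini-Hochberg adjusted), the one such gene among the 10. It was 0.75 for Mtmr12 (adjusted p = 0.0175), 0.70 for Pik3c2a (adjusted p = 0.0479, a call lost in 11 of 13 fits without 1 library and with the length and GC trend removed), 0.92 for Pik3c2g (adjusted p = 0.0238), 1.07 for Wdfy3 (adjusted p = 0.0118), 0.68 for Tpcn1 (adjusted p = 0.0105) and 0.97 for Sgk3 (adjusted p = 0.0103, all from edgeR).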

How the results depend on the processing

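In FeO against WT, the call of Pikfyve held under all 7 other settings and without each of the 13 libraries, and those of Mtmr3 and Mtmr4 held in all but the fit with the length and GC trend removed. In Spns1 KO against WT, Pikfyve was called in 5 of 7 other settings, Mtmr3 in 4 and Mtmr4 in 3. Of the 10 genes, 3 were called in Spns1 KO: with library totals alone the number was 5, with every gene of a count above 0 tested it was 0, with the replicate block 1, with the trend removed 0, and without 1 library 0 to 3. In FeO 4 were called, 3 to 4 without 1 library and 1 with the trend removed. The FeO call of Mtmr1, at the fold limit, was kept in 3 of 7 other settings. Over all genes 3577 were called in Spns1 KO (2325 up, 1252 down), and 2023 (without Spns1 KO 3) to 5673 (without Spns1 KO 4) without 1 library. Library totals alone gave 1737 up and 2092 down and moved the median of all genes from -0.045 to -0.18, the unfiltered fit gave 2463 and 788, and removing the trend left 679 down. Between Spns1 KO and FeO 2447 genes were called (1122 up, 1325 down), 1084 in a fit of those groups alone, 1223 (without FeO 1) to 3090 (without FeO 2) without 1 library, and 757 up and 1453 down with library totals alone. The causes of these changes were not tested.

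With the trend removed, signs turned for Mtm1 (0.020 in Spns1 KO, 0.17 in FeO), in Spns1 KO also for Mtmr12 (0.047), Pik3c2a (0.11), Wdfy3 (0.20), Eea1 (0.20) and Sgk3 (0.20), in FeO for Tpcn1 (0.086), and between Spns1 KO and FeO for Mtmr1 (-0.029). With library totals alone they turned for Mtmr2 in FeO (-0.0089) and, between Spns1 KO and FeO, for Vac14 (-0.021) and Mtmr1 (-0.071). Mtmr1 there was also -0.012 with DESeq2 and with its size factors, -0.0049 unfiltered and -0.0037 in the fit of those groups alone. None of these was called in the fit reported. Without 1 library, ranges that cross 0 were -0.055 to 0.15 for Mtmr2 and -0.30 to 0.049 for Wdfy3 (FeO and Spns1 KO against WT), and between Spns1 KO and FeO -0.024 to 0.15 for Vac14, -0.067 to 0.11 for Mtmr1 and -0.26 to 0.31 for Atg14.

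Replicate numbers did not pair the libraries: same-numbered deviations correlated at -0.296 to -0.0655 between Spns1 KO and WT, -0.0362 to 0.256 between Spns1 KO and FeO and -0.203 to 0.194 between WT and FeO, and own numbers correlated best for 0, 0 and 1 of 4 libraries. The replicate block (12 libraries, without WT 5) called 1 of the 10 genes in Spns1 KO, 2069 genes up and 925 down there, and turned Atg14 between Spns1 KO and FeO to 0.0090.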

Other observations

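Further readers and channels lay outside the rule for naming genes and were chosen after their values were seen. Mcoln1, the lysosomal cation channel that PI(3,5)P2 opens, averaged 42.4 ± 7.65 CPM in FeO (SD, n = 4), 67.6 ± 4.58 CPM in Spns1 KO (SD, n = 4) and 49.9 ± 3.99 CPM in WT (SD, n = 5). On the log2 scale it stood at 0.44 in Spns1 KO against WT (adjusted p = 0.0314, inside the fold limit), -0.23 in FeO against WT (adjusted p = 0.182) and 0.67 between Spns1 KO and FeO (adjusted p = 0.00922, edgeR's quasi-likelihood test, Benjamini-Hochberg adjusted). After removal of the length and GC trend the last value was 0.76, and Spns1 KO against WT was 0.26 (adjusted p = 0.146, from edgeR). Like Tpcn1, Mcoln1 had its highest mean in the libraries labelled Spns1 KO, whereas Pikfyve, whose product opens both channels, had its highest in WT. With the trend removed, neither Mcoln1 nor Pikfyve (-0.16, adjusted p = 0.482, from edgeR) was called in Spns1 KO against WT, whereas Tpcn1 was (0.67).

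In FeO, Rufy1 (log2 fold change 0.65, adjusted p = 0.00125) and Wdr45 (0.74, adjusted p = 0.000859), which bind PI3P on endosomes and on autophagic membranes, rose against WT, and Rbsn, a Rab effector with a FYVE domain, fell by 0.68 on the log2 scale (adjusted p = 0.00212, all from edgeR). After removal of the trend Rufy1 was still called at 0.54, whereas the calls of Wdr45 (0.35) and Rbsn (-0.36) were lost. Wdr45b, a relative of Wdr45, was called lower in Spns1 KO than in FeO (log2 fold change -0.69, adjusted p = 0.0111, from edgeR).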
